A study of Mus musculus with 28 samples.

Results

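Tail skin cells marked through the Dlx1 line were compared with the total interfollicular epidermis (IFE) of the same line, the epidermis between the hair follicles. The comparison rests on 4 of the 28 RNA-seq libraries of the series: Dlx1+ cells, replicates 1 and 2, and total cells, replicates 1 and 2, taken from the labels and paired by replicate number. Both groups came from mice labelled WT(Dlx1CreER x RosatdTomato), in which a tamoxifen-inducible Cre recombinase carried under the name Dlx1 turns on a red fluorescent reporter, tdTomato, at the Rosa locus. All mice, those of the totals included, received tamoxifen on 5 days in a row, from postnatal day 30 to 34. After 2 weeks, on postnatal day 49, skin was collected in telogen, the resting phase of the hair cycle. The Slc1a3 and Aspm lines of tail skin, with 2 labelled and 2 total libraries each, carry Cre under those names and had the same reporter and treatment. The labels do not say whether the totals still held the marked cells or how cells were sorted. Nor do they say whether the libraries of a group came from separate animals. The p-values below therefore measure only a spread between libraries, estimated jointly over all 28 of the series.

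Dlx1 encodes a homeobox transcription factor. In tail skin the epidermis is divided into scales, whose suprabasal cells make hard keratins, and interscales between them, with hair follicles in the interscale. The Dlx1 line is known for marking slowly dividing basal cells, and the Slc1a3 line for marking basal cells that divide more often. A hair follicle holds a lower compartment of resting stem cells, the bulge, marked by Cd34 and Lhx2, and an upper one, the isthmus and infundibulum, marked by Lrig1 and Krt79, which joins the IFE at the skin surface.

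The 4 libraries held 19087740 and 30939847 counts in Dlx1+ cells (replicates 1 and 2) and 27061137 and 29742937 in the totals, within the 7738262 to 37670589 counts of the whole series. The basal keratins Krt5 and Krt14 lay at 38390 and 36700 CPM (counts scaled to library size) in the first Dlx1+ library, among the highest levels of any gene. The T cell gene Cd3d and the dendritic cell gene Itgax had 0 counts in all 4 libraries. Most immune genes listed did have counts: only 4 of 14 T cell genes and 1 of 12 Langerhans and myeloid genes were at 0 throughout. The comparison was set up as paired by replicate number, and the fit carried 1 term per pair. Same-numbered Dlx1+ and total libraries deviated together from their group means (r = 0.674 over 10374 genes), which does not show what a pair shares.

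Dlx1 itself (chromosome 2, 71528113 to 71533981 on GRCm38) did not pass between the sorted cells and the totals. It measured 8.54 and 9.33 CPM in Dlx1+ replicates 1 and 2 and 7.28 and 8.31 in the totals. Both Dlx1+ libraries lay above both totals by a margin smaller than the spread within either group, and the log2 change of 0.20 (SE 0.85) did not pass (adjusted p = 1). Reads of Dlx1 and of the antisense gene Dlx1as, which overlap on opposite strands, cannot be told apart in these non-directional libraries. The other genes that name lines gave no change that passed either: Slc1a3, a glutamate transporter, had a log2 change of 0.39, Aspm, a spindle protein of dividing cells, 0.02, and Krt14 0.34. The tested members of the Dlx family were all positive (5 of 5, median log2 change 0.34), with Dlx2 at 0.64 and Dlx3 at 0.57, and 0 of them passed (1 at an unadjusted p under 0.05).

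In the paired fit over all libraries, the genes that separated Dlx1+ cells from total IFE were lower in Dlx1+ cells in all cases but 1. Of 17493 genes tested with the pairing, 81 passed (0.463%; edgeR's quasi-likelihood test, Benjamini-Hochberg adjusted p under 0.05), 80 of them lower in Dlx1+ cells (0.457%) and 1 higher (0.00572%). Of the 80 lower genes 14 were on 1 or both of the hair follicle lists described below, among them the transcription factors Lhx2, Foxc1, Tbx1 and Sox9, the keratins Krt79 and Krt17, the receptor-like Lrig1 and the BMP antagonists Grem1 and Fst. Lower genes on neither follicle list included the matrix genes Ccn2, Col6a2, Hmcn1 and Col4a1. Over all genes, 8657 changes were positive and 8836 negative, with a median of 0. At an unadjusted p under 0.05, 733 genes (4.19%) were found. Without the pairing 0 genes passed by edgeR, and unadjusted p-values under 0.05 numbered 446 (2.55%). With the pairing the count was 1 without replicate 1, 8 without replicate 2, and 212 (33 higher) without 1 back skin total library of the Slc1a3 line (replicate 4) that stood apart. The split moved with the libraries fitted: 201 of 499 genes were higher with only the 12 tail libraries, and 469 of 1116 with only the 4 Dlx1 libraries paired. Each call below holds for the paired fit over all libraries.

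**Figure D1:**
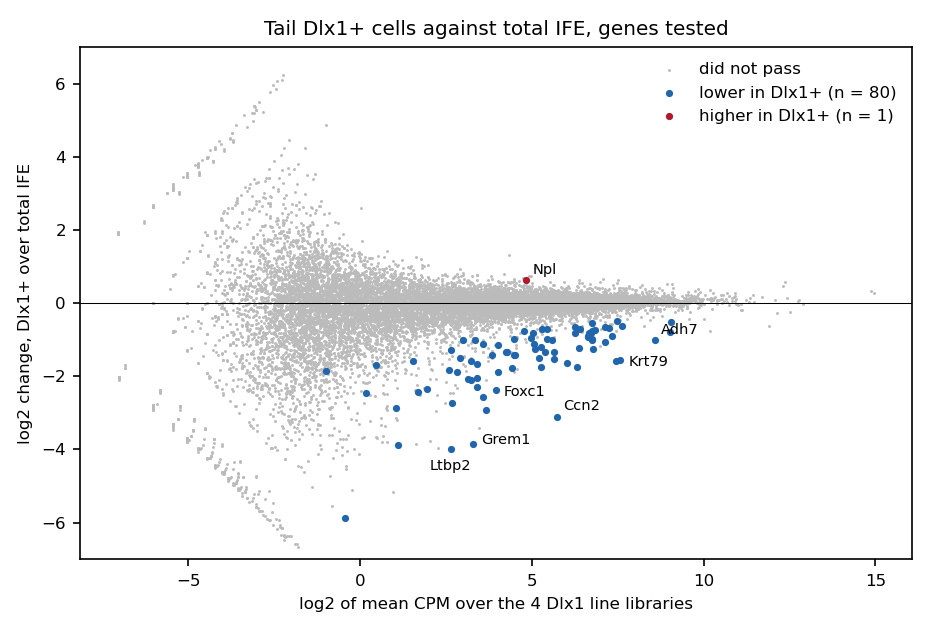
Log2 change of each tested gene (vertical axis, Dlx1+ over total IFE, paired fit) against the log2 of its mean CPM over the 4 libraries (horizontal axis). The 80 lower genes (blue) lie below 0 over a wide range of levels and 1 higher gene (red) lies above, while grey genes did not pass; 4 genes lie outside the axis limits of plus and minus 7.

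The lower genes were mostly well measured. Their median level in the totals was 44.1 CPM, against 12.6 for all genes tested, and 79 of the 80 are protein-coding. In 76 of them both Dlx1+ libraries lay below both totals, a separation that 2732 of all tested genes showed (15.6%). The 80 genes were chosen by a test on these same libraries, which favours well-counted and separated genes. The median log2 change was -1.34, and 55 of the 80 fell below -1, a halving. They lay on 19 chromosomes, and 24 were on the gene lists used here.

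Lrig1 had the lowest adjusted p of the genes described. It encodes a transmembrane inhibitor of ErbB signalling that marks stem cells of the upper follicle. It measured 75.5 and 53.7 CPM in Dlx1+ replicates 1 and 2 and 198 and 116 in the totals. Every Dlx1+ value lay below both totals, and the fall was alike within the pairs (log2 -1.39 and -1.11). The fitted change was -1.25 (SE 0.12, adjusted p = 2.0e-04, and 0.73 without the pairing). The gene overlaps an exon of Slc25a26 on the opposite strand.

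The promoters of Lrig1, Krt79 and Foxc1, 3 follicle genes that fell together, are shown as RefSeq gives them on GRCm38.p6, from 250 bases before the start of transcription to 50 after it and read along the gene. Capitals mark matches on either strand to 6 motifs of 6 letters. These are TAATTA for homeobox factors, AACAAT for SOX factors, ACAAAG for the LEF family, GGAATG for TEAD factors, CCGCCC for the SP and KLF families and TATAAA for the TATA box. Lrig1 lies at chr6:94700096-94700395 on the minus strand, Krt79 at chr15:101940275-101940574 on the minus strand and Foxc1 at chr13:31806396-31806695 on the plus strand.
Lrig1: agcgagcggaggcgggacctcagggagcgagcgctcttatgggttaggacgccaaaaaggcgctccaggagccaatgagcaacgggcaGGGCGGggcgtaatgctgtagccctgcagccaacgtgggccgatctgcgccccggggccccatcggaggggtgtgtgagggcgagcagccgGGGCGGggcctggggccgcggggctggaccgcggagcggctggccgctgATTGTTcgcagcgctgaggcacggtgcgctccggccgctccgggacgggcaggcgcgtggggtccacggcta
Krt79: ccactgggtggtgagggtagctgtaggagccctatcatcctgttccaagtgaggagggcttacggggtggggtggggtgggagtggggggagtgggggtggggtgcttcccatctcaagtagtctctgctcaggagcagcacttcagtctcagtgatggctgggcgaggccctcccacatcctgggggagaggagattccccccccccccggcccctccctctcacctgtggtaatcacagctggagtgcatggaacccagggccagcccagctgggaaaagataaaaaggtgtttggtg
Foxc1: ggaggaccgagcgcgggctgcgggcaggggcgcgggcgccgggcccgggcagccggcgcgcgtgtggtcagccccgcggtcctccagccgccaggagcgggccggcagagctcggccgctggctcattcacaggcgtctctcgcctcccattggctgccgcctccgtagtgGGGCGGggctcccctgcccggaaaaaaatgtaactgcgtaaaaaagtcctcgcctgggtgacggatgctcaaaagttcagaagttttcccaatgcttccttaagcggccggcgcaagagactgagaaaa
Lrig1 held 3 matches, CCGCCC on the reverse strand at both early sites and AACAAT on the reverse strand near the start, Foxc1 held 1 match to CCGCCC, and Krt79 held 0. Among the 80 lower genes 59 had a promoter in the table, in 88 windows. Of these windows 56.8% held CCGCCC, against 59.3% of the 14711 windows of all tested genes. TAATTA was in 3.41% against 2.79%, AACAAT in 7.95% against 6.06%, ACAAAG in 12.5% against 14%, GGAATG in 17.0% against 12.7% and TATAAA in 9.09% against 7.83%. These shares describe the letters in this window and were not tested.

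Genes of the bulge and the hair germ below it were lower as a group. Of 28 list members tested, 8 fell, 0 rose and 20 did not pass; 17 had an unadjusted p under 0.05, 24 changes were negative, and the median log2 change was -1.20 beside 0 for all genes. Over all genes tested 0.457% were lower and 4.19% had an unadjusted p under 0.05, the shares to set beside each list below. The members that fell were Lhx2, Foxc1, Tbx1, Ltbp2, Grem1, Sox9, Fst and Col6a1. In a bulk library fewer follicle cells and less RNA per cell cannot be told apart. Without the pairing 0 of the 28 passed.

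Lhx2, a LIM-homeobox factor of bulge stem cells (chromosome 2, 38339281 to 38369733), measured 3.39 and 3.5 CPM in Dlx1+ replicates 1 and 2 and 18.7 and 22.7 in the totals. Both pairs showed the fall (log2 -2.43 and -2.66), and the fitted change was -2.58 (SE 0.44, adjusted p = 0.011). Cd34, the surface sialomucin used to sort bulge cells (chromosome 1, 194938819 to 194961279), measured 1.54 and 2.22 CPM in Dlx1+ cells and 17.7 and 22.3 in the totals. The libraries did not overlap, yet its log2 change of -3.42 (SE 0.77) did not pass (adjusted p = 0.073, and 0.19 without the pairing). Lgr5, a Wnt coreceptor of germ and bulge cells, measured 0.925 and 1.98 CPM against 6.29 and 12.9, without passing (log2 -2.73, adjusted p = 0.69).

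Foxc1, a forkhead factor of quiescent bulge cells, measured 4.88 and 4.87 CPM in Dlx1+ cells and 31.7 and 20.3 in the totals, a log2 change of -2.37 (SE 0.28, adjusted p = 8.0e-04). Sox9, which maintains the outer root sheath and bulge, measured 17.8 and 20.6 CPM against 49.7 and 60.03, a log2 change of -1.51 (SE 0.21, adjusted p = 0.0023). Tbx1, a T-box factor, gave 9.36 and 4.96 CPM against 25.7 and 25.1, a log2 change of -1.90 (SE 0.32, adjusted p = 0.012). For these transcription factors every Dlx1+ library lay below every total, which the naming rule required of Foxc1 and Tbx1. Krt15, a keratin of bulge and basal cells, measured 2961 and 3108 CPM against 4721 and 4681, without overlap and without passing (log2 -0.63, adjusted p = 0.13). Sox21 and Cdh3 had positive log2 changes of 0.27 and 0.15 that missed the threshold.

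Upper follicle genes formed the other low group. Of 12 members 7 fell, 0 rose and 5 did not pass; 10 had an unadjusted p under 0.05, 11 were negative and the median was -1.46. Among the members that fell were Lrig1, Krt17, Krt79, Alox12e, Gata6 and Fst. Alox12e, Susd2 and Fst were put on this list because earlier results of these data were known; without them 5 of 9 fell and the median was -1.50. Without the pairing 0 of the 12 passed, and 0 passed without replicate 1 against 4 without replicate 2.

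Krt79, a keratin of the infundibulum and of the cells that open the hair canal (chromosome 15, 101929332 to 101940324), measured 113 and 71.2 CPM in Dlx1+ replicates 1 and 2 and 409 and 171 in the totals. Both values of replicate 1 were the higher of their group, and the fall was larger in that pair (log2 -1.85) than in the other (-1.27). The fitted change was -1.56 (SE 0.22, adjusted p = 0.0023). Krt17, a keratin of the outer root sheath, measured 104 and 70.0 CPM against 329 and 196, a log2 change of -1.57 (SE 0.17, adjusted p = 5.3e-04). Reads of Krt17 could be shared with its near copy Krt14, and those of Krt6a, another follicle and wound keratin, with other Krt6 genes; Krt6a measured 53.9 and 21.8 CPM against 162 and 81.7 (log2 -1.74, adjusted p = 0.0042).

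Gata6, a transcription factor of the upper sebaceous duct, measured 4.01 and 4.2 CPM against 18.4 and 15.8 (log2 -2.06, SE 0.33, adjusted p = 0.0068). Alox12e, an epidermal lipoxygenase, measured 15.4 and 19.8 CPM against 63.0 and 55.0 (log2 -1.75, SE 0.20, adjusted p = 5.9e-04). Stra6, the retinol-uptake receptor, measured 43.0 and 19.1 CPM against 142 and 56.1 (log2 -1.64, SE 0.32, adjusted p = 0.033). Each of these genes was separated between the groups, which the rule for naming them required. Of all genes tested 15.6% were separated in this direction. Plet1 and Lgr6, other markers of the isthmus, did not pass, with log2 changes of -0.58 and 0.24.

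**Figure D2:**
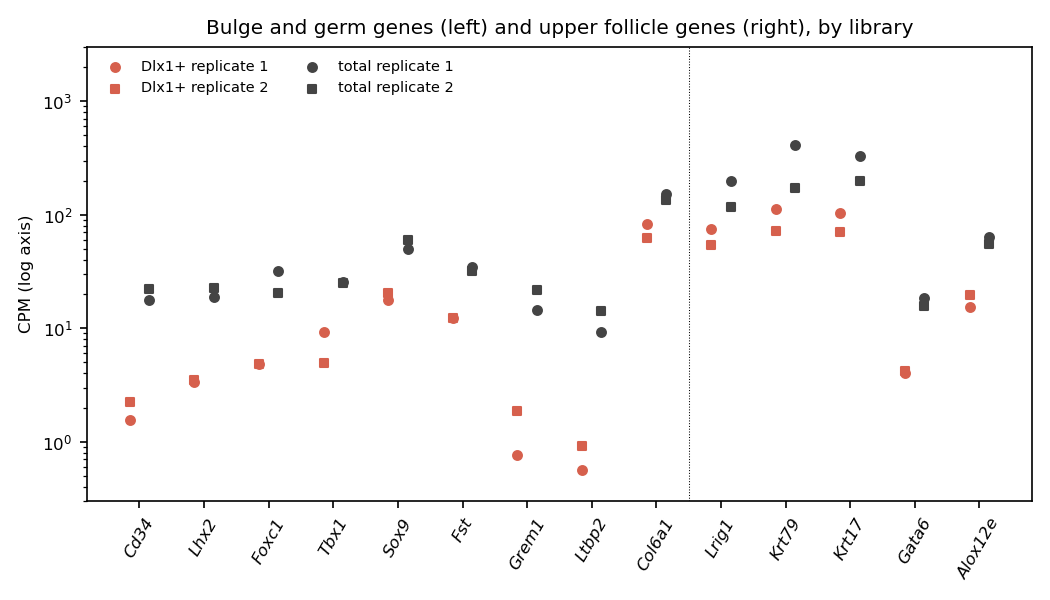
CPM (log axis) of 9 bulge and germ genes (left) and 5 upper follicle genes (right) in each library; red marks are Dlx1+ cells, dark marks total IFE, circles replicate 1 and squares replicate 2. In every gene both red marks lie below both dark marks, for example Lhx2 at 3.39 and 3.5 CPM in Dlx1+ cells and 18.7 and 22.7 in the totals; Cd34 is the gene shown that did not pass.

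Of 17 sebaceous gland genes, which belong to the same appendage, 0 passed, also at an unadjusted p under 0.05, 14 were positive and the median was 0.38; Scd1, a lipid desaturase, gave a log2 change of 0.19 and Plin2, a lipid droplet protein, -0.28. Of 16 hair shaft and inner root sheath genes tested 0 passed (2 at an unadjusted p under 0.05), with 9 positive.

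Ccn2, a secreted matricellular protein and known target of YAP and TGF-beta (chromosome 10, 24595442 to 24598683), measured 21.3 and 4.47 CPM in Dlx1+ replicates 1 and 2 and 134 and 54.3 in the totals. Replicate 1 was higher in both groups, and the fall within the pairs was -2.65 and -3.57. The fitted change was -3.11 (SE 0.32, adjusted p = 3.4e-04, and 0.92 without the pairing). Ccn2 passed with either replicate left out.

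Grem1, a secreted BMP antagonist, measured 0.771 and 1.85 CPM in Dlx1+ cells and 14.4 and 21.7 in the totals (log2 -3.85, SE 0.68, adjusted p = 0.016). Ltbp2, a latent TGF-beta binding protein family member of the matrix, measured 0.566 and 0.912 CPM against 9.21 and 14.3 (log2 -3.98, SE 0.84, adjusted p = 0.047). Fst, the activin antagonist follistatin, measured 12.4 and 12.4 CPM against 34.7 and 31.7 (log2 -1.42, SE 0.21, adjusted p = 0.0037). All 3 antagonists and binders were separated between the groups, which the naming rule required of Grem1 and Ltbp2. They were the only members of the BMP and TGF-beta list of 41 that passed in this fit, with 8 at an unadjusted p under 0.05, and the list's median was -0.09, with 15 positive. Among its receptors and signal carriers 0 of those named passed, with Bmpr1a at a log2 change of -0.12, Smad4 at -0.09 and Tgfbr2 at 0.11, nor did the BMP target Id1 at 0.13.

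In the Wnt list 2 of 42 members fell, 14 had an unadjusted p under 0.05, and the median was -0.03 (0.00 with genes at 0 counts in a group set to their bound of 3 counts per library or left out where none can be given). Over all genes 0.457% were lower and 4.19% had an unadjusted p under 0.05. Fzd7, a Wnt receptor, measured 54.7 and 44.5 CPM against 123 and 107 (log2 -1.22, SE 0.16, adjusted p = 0.0021). Apcdd1, a membrane inhibitor of Wnt, measured 67.4 and 60.03 CPM against 119 and 89.7 (log2 -0.70, SE 0.14, adjusted p = 0.043). Of the 42 members 20 were positive and 22 negative. The ligands Wnt3 and Wnt10b, which met the naming rule for positive genes, lay on the positive side without passing. Wnt3 measured 105 and 107 CPM in Dlx1+ cells and 77.0 and 75.7 in the totals (log2 0.47, adjusted p = 0.059). Wnt10b measured 25.4 and 28.3 against 13.6 and 21.3 (log2 0.65, adjusted p = 0.16). Axin2, a common Wnt target, gave a log2 change of 0.14. In the Hedgehog list 0 of 11 passed (1 at an unadjusted p under 0.05), with 8 negative, and Gli1, a Hedgehog target, measured 0.154 and 1.58 CPM against 2.57 and 2.33. In the Notch list 0 of 15 passed (1 unadjusted), with a median of -0.02. Among FGF and EGF ligands and receptors 1 of 20 fell (4 at an unadjusted p under 0.05), Fgfr1, an FGF receptor, at 71.0 and 66.5 CPM against 131 and 129 (log2 -0.92, SE 0.14, adjusted p = 0.0052).

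Basement membrane and matrix genes were split. Of 37 members 4 fell, 11 had an unadjusted p under 0.05, and the median was -0.04 (-0.05 with such bounds). The shares over all genes were 0.457% lower and 4.19% at such a p. Hmcn1, the extracellular protein hemicentin, measured 2.57 and 1.03 CPM against 10.9 and 11.1 (log2 -2.73, SE 0.37, adjusted p = 0.0023). Col4a1 and Col4a2, collagen IV chains, had log2 changes of -2.07 (adjusted p = 0.0029) and -1.59 (adjusted p = 0.0061), and Thbs1, thrombospondin, -0.66 (adjusted p = 0.038). Col4a1 and Col4a2 overlap on opposite strands only from 11312805 to 11312826 of chromosome 8, so only reads over that short stretch could be shared. Col6a2, a collagen VI chain, measured 2.88 and 3.01 CPM against 22.1 and 23.0 (log2 -2.93, SE 0.59, adjusted p = 0.033). Of the basement membrane components of basal keratinocytes, 3 that did not pass were Col17a1 at a log2 change of 0.10, Lama3 at 0.11 and Lamb3 at -0.03.

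Among genes that passed with separated libraries and at least 5 CPM in the totals, the other large falls named were Cald1, an actin-binding caldesmon (log2 -2.43), Sh3tc2 (-2.34), Nebl, the actin-binding nebulette (-2.09), Cldn8, a tight junction claudin (-1.88), Zfp365 (-1.83) and Epb41l2, a membrane skeleton protein (-1.66). Nebl measured 4.17 and 2.89 CPM against 18.7 and 11.7, and Cldn8 2.52 and 3.5 against 10.6 and 11.5.

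The gene that passed upward was Npl, N-acetylneuraminate pyruvate lyase, an enzyme that breaks down sialic acid (chromosome 1, 153503015 to 153550045). It measured 34.9 and 34.8 CPM in Dlx1+ replicates 1 and 2 and 23.7 and 21.3 in the totals. The groups did not overlap, and the log2 change was 0.63 (SE 0.12, adjusted p = 0.019, and 1 without the pairing). Of all genes tested 12.7% had both Dlx1+ libraries above both totals. The next genes upward by p did not pass. Klf5, a Krüppel-like factor of proliferating epithelium, measured 234 and 292 CPM against 173 and 207 (log2 0.46, adjusted p = 0.074). Gas6, a ligand of TAM receptors, measured 517 and 441 against 374 and 343 (log2 0.41, adjusted p = 0.084). Nrg2, an ErbB ligand, measured 22.4 and 24.2 against 12.2 and 14.8 (log2 0.79, adjusted p = 0.14). Slc39a6, a zinc transporter, had a log2 change of 0.41 (adjusted p = 0.088) and Ndufa4l2, a protein related to a respiratory chain subunit, 0.65 (adjusted p = 0.16).

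Of 19 basal keratinocyte genes 1 fell, Thbs1, and 0 rose; 2 had an unadjusted p under 0.05, 16 were positive, with a median of 0.10. Krt14 measured 36700 and 31040 CPM in Dlx1+ cells against 29080 and 24450 (log2 0.34, adjusted p = 1), Itga6, an integrin of the basal layer, 763 and 970 against 652 and 890 (0.17), and Trp63, the epidermal p53 relative, 756 and 838 against 748 and 818 (0.02). Igfbp3, which binds insulin-like growth factors, had the largest positive change on the list at 0.55 (adjusted p = 0.20).

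Spinous and granular differentiation genes were mixed in direction. Of 34 members 2 fell and 0 rose, 10 had an unadjusted p under 0.05, 21 were positive and the median was 0.09. Their summed level was 17700 and 18290 CPM in Dlx1+ cells and 13200 and 13840 in the totals. Spink5, the protease inhibitor LEKTI, measured 7.82 and 14.3 CPM against 23.5 and 30.9 (log2 -1.33, SE 0.20, adjusted p = 0.0040). Skint3, a member of a family of near copies expressed in keratinocytes, was low throughout, at 0.823 and 0.517 CPM against 2.14 and 2.05 (log2 -1.69, adjusted p = 0.024). Krt10 and Krt1, the keratins of the spinous layer, did not pass, with log2 changes of 0.45 and 0.27.

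For the scale and interscale parts of tail epidermis, the list of hard keratins had 0 of 8 passing (1 at an unadjusted p under 0.05). Krt36 measured 1098 and 964 CPM in Dlx1+ cells against 823 and 748, a log2 change of 0.39 (SE 0.41, adjusted p = 1). Krt84 measured 1313 and 1273 against 996 and 1041, a log2 change of 0.34 (SE 0.39, adjusted p = 1). Both were slightly higher in Dlx1+ cells in each pair, by less than their standard error. Krt2, a suprabasal keratin found in interscale epidermis, measured 6275 and 6415 against 4103 and 4352 (log2 0.59, SE 0.38, adjusted p = 1); it was named for this role after its values were seen.

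No cell division gene passed. Of 30 mitosis and G2 genes 0 passed, with a median of 0.04, and of 25 DNA replication genes 0 passed, with a median of 0.07 and 22 positive; neither list had a member at an unadjusted p under 0.05. The gene with the lowest p in the mitosis list was Kif4, a chromokinesin, with a log2 change of 0.24, and in the replication list Rrm2, a ribonucleotide reductase subunit, with 0.19. Ribosomal protein genes gave 0 of 28 passing and a median of 0.09, and mitochondrial transcripts 0 of 8 and -0.18. Immediate early and stress genes gave 0 of 19 (3 unadjusted) and -0.10, and Eda and Edar genes 0 of 7 (1 unadjusted) and 0.07. Among interferon response genes 1 of 19 fell, Usp18, an enzyme that removes ISG15 (log2 -1.86, adjusted p = 0.047), at 0.103 and 0.304 CPM against 0.738 and 0.859; it lies below the level set for naming and was named after its values were seen.

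**Figure D3:**
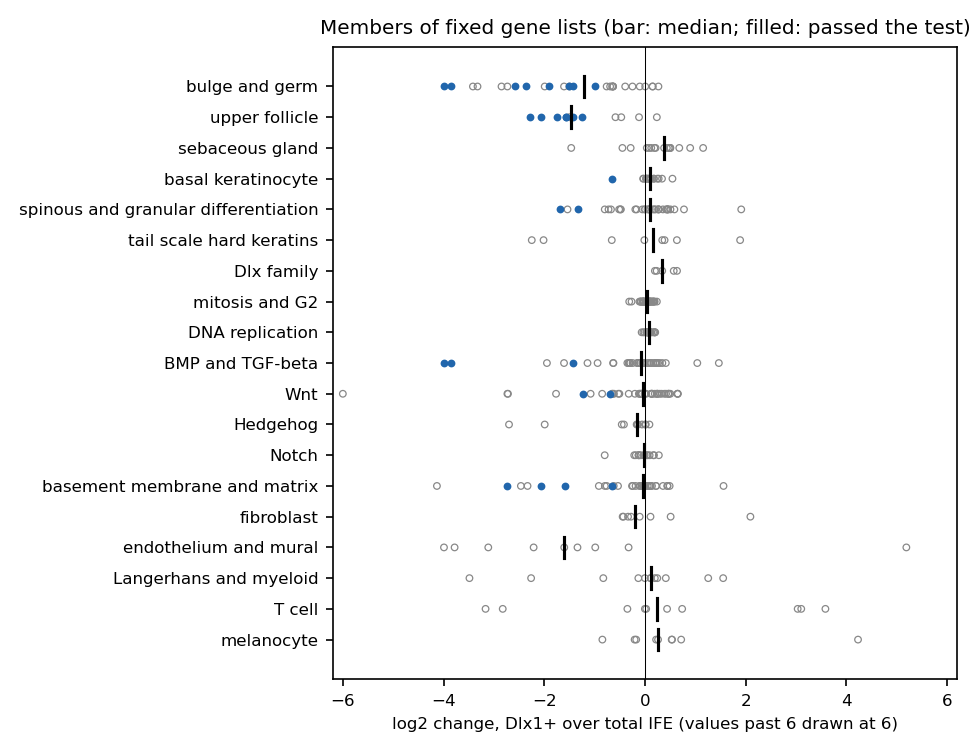
Log2 change (Dlx1+ over total IFE, paired fit) of each tested member of 19 gene lists, 1 row a list; filled blue points passed, open points did not, the vertical bar is the list's median, and values past 6 are drawn at 6. The bars of the bulge and germ list (-1.20), the upper follicle list (-1.46) and the endothelium and mural list (-1.60) lie left of -1, whereas those of the other 16 lists lie between -0.19 and 0.38.

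Markers of other cell types were at low levels, and vascular ones moved in the same direction as the follicle genes. The summed CPM of 11 endothelial and mural genes was 4.47 and 2.80 in Dlx1+ replicates 1 and 2 and 10.7 and 20.8 in the totals. Of 9 members tested 8 were negative, 0 passed (1 at an unadjusted p under 0.05), and the median was -1.60; Vwf, the clotting factor of endothelium, measured 0.463 and 0.486 CPM against 3.23 and 12.1 (log2 -3.78, adjusted p = 0.73), and the defining marker Cdh5 was at 0 and 0.152 CPM against 0.562 and 0.613. In total replicate 2 Vwf made up 12.1 of the 20.8 CPM. The median of the endothelial and mural list was 0.17 in the Slc1a3 line and -0.42 in the Aspm line. Col4a1 had log2 changes of -1.65 and -1.43 in those lines, and Hmcn1 -2.25 and -2.88. The part of endothelial and mural cells in the fall of matrix genes such as Col4a1 and Hmcn1 was not tested. Krt8, a keratin of Merkel cells, measured 0.308 and 0.304 CPM against 2.42 and 3.04 (log2 -3.13, adjusted p = 1), within a list whose sum was 5.09 and 3.28 against 6.93 and 5.30 and whose defining marker Krt20 was at 0 in both totals.

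For the remaining cell types 0 members of the lists passed. Fibroblast genes summed to 38.9 and 41.6 CPM in Dlx1+ cells and 37.0 and 45.4 in the totals, with 0 of 8 passing and Col1a1 at 1.65 and 2.07 against 2.00 and 2.7. Langerhans and myeloid genes summed to 51.6 and 37.0 against 47.4 and 31.3, most of it Mfge8, with Cd207 at 0 and 0.182 against 0 and 0.337. T cell genes summed to 45.5 and 32.8 against 35.2 and 15.2, nearly all of it Thy1, with Trdc at 0 in both totals. Melanocyte genes summed to 17.1 and 22.4 against 18.4 and 25.2, and Schwann cell genes to 101 and 87.4 against 84.8 and 81.7. Adipocyte genes summed to 29.4 and 30.5 against 31.8 and 30.6; within them Fabp4, a fatty acid binding protein of fat and endothelium, had 0 counts in both Dlx1+ libraries and 2.17 CPM (SD 0.117, n = 2) in the totals, at least 17.7-fold lower when each library at 0 is set to 3 counts, without passing (adjusted p = 0.19).

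The same contrast in the other tail lines asks which of these falls the Dlx1 line shares. The lines use separate total libraries. With the pairing, 237 genes were lower in Slc1a3+ cells (1.35%) and 6 in Aspm+ cells (0.0343%). Of the 80 genes lower in Dlx1+ cells, 63 were also lower in Slc1a3+ cells, which is 78.8% of the Dlx1 list and 26.6% of the Slc1a3 list, and 79 had a negative change there. All 6 genes lower in Aspm+ cells were among the 80 (7.5% of the Dlx1 list, 100% of the Aspm list), namely Grem1, Ccn2, Hmcn1, Usp18, Lrig1 and Fzd7, and 78 of the 80 were negative in that line. The median log2 change of the 80 genes was -1.34 in Dlx1+, -1.59 in Slc1a3+ and -0.66 in Aspm+ cells. The genes were chosen on the Dlx1 line, so the first of these medians is set by that choice.

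The bulge and germ list had a median of -1.58 in Slc1a3+ cells (11 lower) and -0.65 in Aspm+ cells (1 lower), beside -1.20 (8 lower) in Dlx1+ cells. The upper follicle list had -1.03 (6 lower) and -0.26 (1 lower), beside -1.46 (7 lower). Lhx2 measured 2.56 and 2.25 CPM in Slc1a3+ cells against 9.09 and 10.9 in their totals, a log2 change of -2.05. In Aspm+ cells Lhx2 measured 6.004 and 1.49 against 12.3 and 9.33, a log2 change of -1.77 (adjusted p = 0.41). The difference of the Dlx1 line from either line did not pass for Lhx2 (adjusted p = 1 for both).

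The difference between the Dlx1 and the Slc1a3 change passed for 18 genes (0.103%), all of them less lowered, or higher, in Dlx1+ cells; 526 genes (3.01%) had an unadjusted p under 0.05, and 4 passed without the pairing (0.0229%). The count was 47 (7 of them in the other direction) without the back total library that stood apart, and between 5 and 13 with a replicate of either line left out. The largest differences concerned Rasgrp1, Susd2, Il20ra, Stra6, Dpysl3 and Fst. Among the 80 lower genes 5 had a difference that passed: Rasgrp1, Stra6, Fst, Adh7 and Lrig1, each of which fell in Dlx1+ cells and fell further in Slc1a3+ cells.

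Susd2, a sushi-domain membrane protein, measured 40.3 and 41.8 CPM in Dlx1+ cells against 52.5 and 61.4 in their totals, and 3.84 and 3.03 in Slc1a3+ cells against 43.0 and 39.9. The Dlx1 change of -0.47 did not pass (adjusted p = 0.24), the Slc1a3 change was -3.60, and the difference was 3.13 (SE 0.21, adjusted p = 1.7e-06, and 9.9e-07 without the pairing). Il20ra, a receptor chain for interleukins of the IL-20 group, behaved alike, with 7.30 and 10.3 CPM against 9.18 and 12.1 in the Dlx1 line and 0.873 and 1.01 against 8.95 and 10.5 in the Slc1a3 line. Its difference was 3.08 (SE 0.32, adjusted p = 1.7e-04).

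Lrig1 measured 9.66 and 11.4 CPM in Slc1a3+ cells against 79.2 and 87.4 in their totals, a log2 change of -2.98, so the fall of -1.25 in Dlx1+ cells was smaller by 1.73 (SE 0.18, adjusted p = 1.7e-04, and 1 without the pairing). Fst measured 1.05 and 0.653 CPM in Slc1a3+ cells against 15.3 and 14.98, a log2 change of -4.15, and the difference was 2.73 (SE 0.36, adjusted p = 0.0019, and 0.64 without the pairing). Stra6 measured 2.50 and 2.79 against 71.3 and 63.6, a log2 change of -4.67. Its difference was 3.03 (SE 0.49, adjusted p = 0.020) and did not pass without the pairing. In these genes the Slc1a3+ cells were lowered to a level that neither Dlx1+ library reached.

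The other way round, 17 of the 80 genes were not called in Slc1a3+ cells, among them Krt79, Nebl, Grem1, Tbx1, Cald1, Sh3tc2, Spink5 and Skint3. None of the 17 had a difference from the Slc1a3 line that passed, so they are not shown to be particular to the Dlx1 line. Krt79 measured 171 and 215 CPM in Slc1a3+ cells against 273 and 326 in their totals (log2 -0.64), and 335 and 279 in Aspm+ cells against 340 and 273 (log2 0.01). Its difference was -0.92 from the Slc1a3 line (adjusted p = 0.93) and -1.57 from the Aspm line (adjusted p = 0.74). Spink5 had a log2 change of -0.15 in Slc1a3+ and -0.05 in Aspm+ cells, and differences of -1.19 (adjusted p = 0.24) and -1.28 (adjusted p = 1). Npl, the gene that rose, was also higher in Slc1a3+ cells (log2 0.51, adjusted p = 0.036) and had 0.31 in Aspm+ cells.

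The difference between the Dlx1 and the Aspm change passed for 0 genes by edgeR, with 345 (1.97%) at an unadjusted p under 0.05; DESeq2's Wald test and limma-voom each gave 2 genes. Of the 80 lower genes, 76 had a larger fall in Dlx1+ than in Aspm+ cells, a direction that the choice of the 80 on the Dlx1 line favours. Ccn2 measured 14.99 and 9.82 CPM in Aspm+ cells against 55.9 and 41.6, a log2 change of -1.99 beside -3.11 in the Dlx1 line. Hmcn1 had -2.88 beside -2.73.

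**Figure D4:**
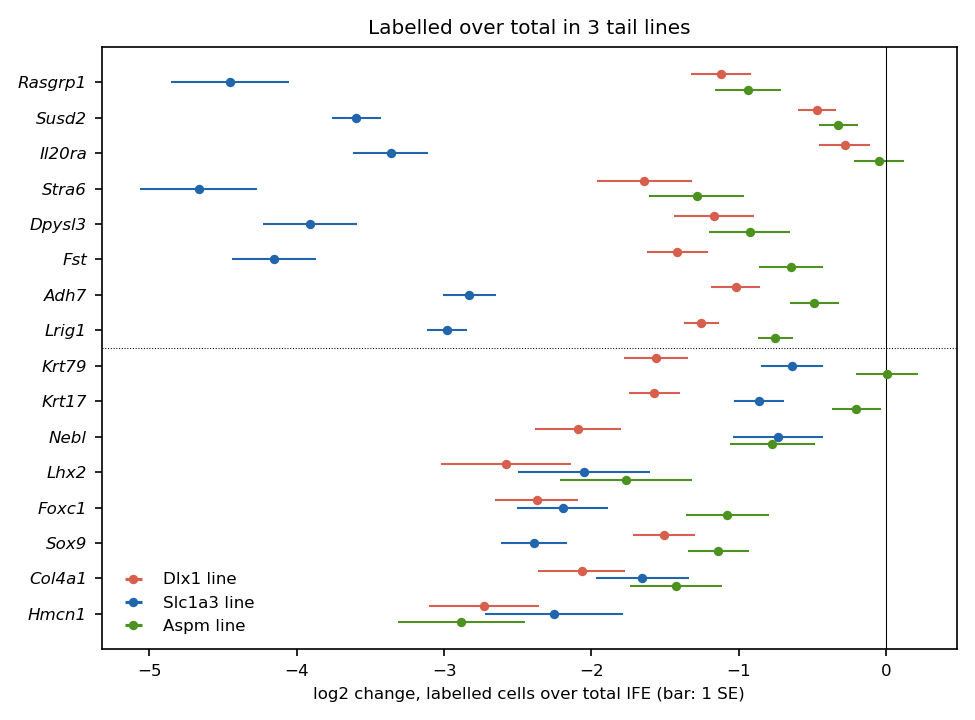
Log2 change of labelled cells over total IFE (horizontal axis, paired fit, bars 1 SE) of 16 genes in the Dlx1 (red), Slc1a3 (blue) and Aspm (green) lines of tail skin, 2 pairs a line. Above the dotted line are 8 genes whose change differed between the Dlx1 and Slc1a3 lines, such as Lrig1 at -1.25 and -2.98; below it are 8 lower genes whose difference did not pass.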

How the data were processed

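The deposited files hold 1 whole-number count per gene and library, made by the authors; the submitters' processing notes list Trim Galore 0.6.0, cutadapt, FastQC, STAR 2.7.0e and DESeq2 1.26.0, with the genome given as GRCm38 and mm10. The counting program, gene annotation and strand setting are not given in the sources used here. Per the labels' protocols, RNA was taken up in TRIzol, selected by poly(A) and made into non-directional libraries from low input. Reads of overlapping genes on opposite strands therefore cannot be told apart. Besides the overlaps given above, exons of Fst, Adh7 and Ndufa4l2 overlap those of Gm47040, 0610031O16Rik and Shmt2, in that order.

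All 55536 gene identifiers matched GENCODE M21, which gave names and positions. All 28 libraries in 12 groups entered 1 model, so that they share 1 estimate of the spread. Counts were scaled by TMM (edgeR 4.0.16, R 4.3.3), and filterByExpr with a minimum count of 10 left 17493 genes. CPM are TMM-scaled. The quasi-likelihood fit (robust, two-sided) had 1 term per labelled and total pair, which left 8 residual degrees of freedom. Its biological coefficient of variation was 0.185. Genes passed at a Benjamini-Hochberg adjusted p under 0.05. SE is that of the log2 change. The labels do not state the pairing. It was taken from the shared numbers after a check over 10374 genes, in which deviations from the group means correlated at 0.181 to 0.689 in all 14 pairs of the series. With 2 pairs a line, both pairs give the same r by construction. By chi-square per gene, same-numbered Dlx1 libraries differed least from each other (19.4 and 19.5, against 32.8 to 50.5 for other pairs of the 4). All differed beyond counting error. The correlation of log2 CPM did not rank the replicate 1 pair in this way. Its r was 0.976, against 0.977 between the Dlx1+ libraries and 0.98 between the totals. For the replicate 2 pair r was 0.983.

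Named genes were the line genes, Dlx1, Lhx2 and Cd34; the up to 20 lower and 10 higher genes with the largest change that passed, had separated libraries and reached 5 CPM; up to 8 positive genes that did not pass; up to 4 members per list with the lowest p; and up to 6 genes each way per difference between lines. Some genes that met these rules are not reported here. Members of lists that were named for their role, beyond those 4, were chosen after their values were seen. The comparison and the lists were chosen with earlier results of these data known, so counts over lists are descriptions and no set test was run. The model was tested on simulated counts, where most of the smallest changes missed the threshold, so a gene that did not pass is not shown to be unchanged. Alternatives with limma 3.58.1 and DESeq2 1.42.0 are given below. Figures were drawn with matplotlib 3.10.9.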

Additional observations from a re-analysis of the deposited data

Results flagged for a closer look

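The labelled-against-total change differed between the Dlx1 and Slc1a3 lines of tail skin for 18 genes, by a test of the difference itself in the paired edgeR fit. On the log2 scale (Dlx1 minus Slc1a3) the genes named by rule or among the lower genes gave 3.33 for Rasgrp1, 3.13 for Susd2, 3.08 for Il20ra, 3.03 for Stra6, 2.74 for Dpysl3, 2.73 for Fst, 1.81 for Adh7 and 1.73 for Lrig1. All of these are positive because the gene was lower in Slc1a3+ cells relative to their total. Rasgrp1, a Ras exchange factor, measured 9.05 and 6.23 CPM in Dlx1+ cells against 17.1 and 15.5, and 0.349 and 0.178 in Slc1a3+ cells against 6.47 and 5.27. Dpysl3, a cytoskeletal protein, measured 95.1 and 61.2 CPM against 203 and 145 in the Dlx1 line, and 4.89 and 6.94 against 84.8 and 91.5 in the Slc1a3 line. Adh7, a retinol-oxidising alcohol dehydrogenase, measured 283 and 220 CPM against 596 and 430, and 49.96 and 28 against 259 and 275. The Susd2 difference passed in all 17 alternative settings and that of Il20ra in 16. The other differences listed here passed in 7 (Stra6) to 12 (Lrig1) of the 17. None of those others passed in the edgeR fit without the pairing (adjusted p = 0.11 for Rasgrp1, 0.20 for Dpysl3 and 0.31 for Adh7).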

How the results depend on the processing

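The number of genes that passed, and the share of them that were higher, depended on the model. For Dlx1+ against total (81 genes) it was 0 with no replicate block, 499 with only the 12 tail libraries, 1116 with only the 4 Dlx1 libraries paired (1 residual degree of freedom) and 13 with these unpaired, 212 without back Slc1a3 total replicate 4, 197 with no low-count filter, 169 by DESeq2's Wald test and 167 by limma-voom; with a pair left out it was 1 to 8, and unpaired with a library left out 0 to 2. The share of higher calls was 1 of 81, but 201 of 499 and 469 of 1116 in the smaller fits. For the difference from the Slc1a3 line (18 genes) the counts were 4 with no replicate block, 156 with the tail libraries, 47 without the back library, 73 with no filter and 45 by the Wald test, with 9 and 11 when a Dlx1 pair was left out, 5 to 13 over pairs of both lines and 3 to 5 unpaired. For the difference from the Aspm line (0 genes) they were 30 with the tail libraries, 1 without the back library, 13 with no filter and 2 by either other tool, and 0 with a pair left out. The bulge and germ list (8 lower, alternatives added after seeing the data) had 0 lower with no replicate block, 17 with the tail libraries, 21 with the Dlx1 libraries paired, 13 without the back library, 15 with no filter and 14 by limma-voom, and 0 to 1 with a pair or library left out. The upper follicle list (7 lower) had 0 with no replicate block, 2 with the Dlx1 libraries unpaired, and 0 to 4 left out. The causes were not tested. Of 63 results for named genes under 1071 alternatives, 658 kept their side of the threshold, 345 lost the call, 68 gained it and 0 turned their direction. Ccn2 passed with either pair left out; Foxc1, Alox12e, Lrig1, Krt17 and Krt79 passed without replicate 2 and not without replicate 1. Scaling by DESeq2 size factors or library totals gave 83 and 90 genes. Depth limits genes with few counts in the Dlx1+ libraries, such as Cdh5 and Fabp4.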

Other observations

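Other genes whose change differed between the Dlx1 and Slc1a3 lines did not pass within the Dlx1 line. Krt7, a simple-epithelium keratin, measured 65.8 and 63.4 CPM in Dlx1+ cells against 61.6 and 75.8, and 8.03 and 8.54 in Slc1a3+ cells against 58.6 and 36.1, a difference of 2.39 (SE 0.35, adjusted p = 0.0061). Krt80 measured 161 and 173 CPM against 196 and 232, and 35.2 and 43.3 against 164 and 176 (difference 1.77, SE 0.16, adjusted p = 4.9e-05). Ntrk2, a neurotrophin receptor, gave a difference of 1.70 (SE 0.22, adjusted p = 0.0019) and Il34, a cytokine that maintains Langerhans cells, 1.67 (SE 0.26, adjusted p = 0.0087). Slc6a2, a noradrenaline transporter, measured 115 and 125 CPM in Dlx1+ cells against 82.9 and 104, and 31.8 and 40.0 in Slc1a3+ cells against 55.3 and 80.3, a difference of 1.28 (SE 0.15, adjusted p = 0.0010). These genes were named after their values were seen. Without the pairing the difference passed for Krt80 (adjusted p = 0.0014, edgeR). It did not pass for Krt7 (0.42), Ntrk2 (0.30), Il34 (0.099) or Slc6a2 (0.20).

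Some of the 80 lower genes on no list are known for roles in cell contacts and signalling, and were picked after their values were seen. Epcam, an epithelial adhesion molecule, measured 26.0 and 20.9 CPM against 65.0 and 43.8 (log2 -1.20, adjusted p = 0.017). Cldn1, a tight junction claudin, measured 116 and 105 CPM against 238 and 182 (log2 -0.91, adjusted p = 0.0055). Efnb2, a ligand of Eph receptors, measured 59.0 and 84.5 CPM against 139 and 148 (log2 -1.02, adjusted p = 0.0013). Vdr, the vitamin D receptor, measured 164 and 147 CPM against 254 and 229 (log2 -0.64, adjusted p = 0.022). Cxcl14, a chemokine of epithelia, measured 106 and 56.1 CPM against 167 and 104 (log2 -0.77, adjusted p = 0.011), and is 1 of the 4 lower genes whose libraries overlapped.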
